A study of Mus musculus with 15 samples.

Results

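Local neuropeptide expression was examined through 10 precursor genes of the mouse pituitary, Gal, Vip, Nts, Tac1, Cck, Penk, Npy, Nmb, Nmu and Adcyap1. They were taken by gene symbol from a count table of 55523 gene rows covering 15 libraries, and each symbol matched 1 row. Given the list, the rule used no measured value other than the choice of the row with the most counts where a symbol had several. The list itself was drawn up with earlier results of these data known. Of the 10 precursors, 7 had a count above 0 in at least 1 library and 3 (Nts, Npy and Adcyap1) were listed at 0 in all 15.

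Neuropeptides are made as long precursors, which prohormone convertases cut into short peptides that are stored in dense-core granules and released to act on G protein-coupled receptors of the same or neighbouring cells. In the anterior pituitary, several of them are local signals of the hormone cells: galanin and vasoactive intestinal peptide (VIP) are known as products of, and regulators of, the prolactin-producing lactotropes, and estrogen is known to raise galanin in the rodent pituitary. Others reach the gland in nerve fibres, in the posterior lobe or through the portal blood, and their mRNA then lies outside the gland.

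The study asked what the pituitary enhancer (PE) of Nr5a1, the nuclear receptor of the gonadotropin-producing gonadotropes, contributes to pituitary gene expression. The enhancer, which lies in an intron of Nr5a1, was deleted with CRISPR/Cas9. RNA was sequenced from whole pituitary glands of 4 PE+/- males, 4 PE-/- males, 4 PE+/- females and 3 PE-/- females. The controls thus carried 1 deleted copy as well, no wild-type pituitary entered the comparisons, and the deletion is present in every tissue, so effects that arise in the pituitary and effects that come from elsewhere in the body cannot be told apart. Age and estrous stage were not given for these libraries in the sources used here, and no source states that each library came from a separate animal, so the p-values measure only the spread between these samples. Whole tissue was sequenced, and fewer cells of a type cannot be told apart from less RNA per cell.

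Levels are given as counts, as deposited, and as CPM (counts per 1000000 counts of the library) after trimmed-mean scaling of the library totals, which ran from 12982794 to 30238443. About 4 counts stand for 1 sequenced fragment, so 12 counts, or 3 fragments, were taken as the floor (0.371 to 0.937 CPM, depending on the library). Nr5a1 itself was lower in each PE-/- group, at 0.35 ± 0.30 CPM against 50.2 ± 20.4 in males (SD, n = 4 and 4, log2 fold change -7.19, adjusted p = 0.0117) and at 0.723 ± 0.151 against 38.7 ± 5.1 in females (SD, n = 3 and 4, log2 fold change -5.72, adjusted p = 0.000253), the direction the labelled genotypes imply. A gene was called where edgeR's quasi-likelihood test gave an adjusted p under 0.05 over all genes tested in that comparison.

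Levels of Gal and Vip in PE-/- females all lay below those in PE+/- females. The share of all genes that separated in this way was not computed, here or for any other groups said below not to overlap. Such a separation is a description only, and here it served as a reason for choice. The sequences upstream of both genes are shown. Each is the 250 bases before the transcription start in RefSeq (build GRCm38.p6), 5′ to 3′ on the gene's strand. Capitals mark a match to TGACG, the cAMP response element (CRE) core, or to GGTCA, the estrogen response element (ERE) core, searched on both strands. The Gal window lies at chr19:3414545-3414794 on the minus strand and that of Vip at chr10:5638968-5639217 on the plus strand.
Gal: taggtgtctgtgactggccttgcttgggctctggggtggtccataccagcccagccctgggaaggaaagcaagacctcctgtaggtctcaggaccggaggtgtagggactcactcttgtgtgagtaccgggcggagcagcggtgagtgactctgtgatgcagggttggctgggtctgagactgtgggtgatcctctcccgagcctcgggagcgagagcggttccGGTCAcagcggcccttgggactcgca
Vip: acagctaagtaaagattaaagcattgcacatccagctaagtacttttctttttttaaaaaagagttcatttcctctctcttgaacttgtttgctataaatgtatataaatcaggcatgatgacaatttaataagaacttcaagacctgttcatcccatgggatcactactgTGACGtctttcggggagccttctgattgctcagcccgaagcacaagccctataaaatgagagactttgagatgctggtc
Gal held GGTCA 26 to 22 bases before its start, with a TGACG after the start at positions 20 to 24. Vip held TGACG 79 to 75 bases before its start, and a GGTCA that ran from 4 bases before the start onto the first transcribed base. The windows searched ran from 250 bases before to 50 after a start, and RefSeq windows were at hand for 9 of the 10 precursors, Penk having none in the table. TGACG was found for 7 of them (Adcyap1, Cck, Gal, Nmu, Nts, Tac1 and Vip) and in 20.8% of all 32851 promoter windows, and GGTCA for 3 (Gal, Nmu and Vip) and in 40.5% of all windows. The full CRE, TGACGTCA, of which TGACG is a part, was in 1.79% of all windows and in none of the members'; the same held for the palindromic ERE, in 0.07% of windows, and for the NR5A1 site AAGGTCA, which contains GGTCA, in 4.72%. A match of so few letters is a description of the sequence only.

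Gal (chr19:3409915-3414544, minus strand, build mm10) encodes galanin. Its counts were 1118, 18129, 13696 and 11978 in PE+/- females, whereas PE-/- females had 15, 64 and 55. The PE+/- male libraries held 152, 281, 809 and 77, and the PE-/- male libraries 44, 44, 64 and 227. PE+/- females therefore stood above every other library, and 3 of the 4 stood close together while replicate 1 was far lower. On the CPM scale the levels were 87.3 in replicate 1 and 759, 745 and 730 in the other three PE+/- females, a group mean of 580 ± 329 CPM (SD, n = 4). The PE-/- females were at 0.926, 1.98 and 2.41 CPM, a mean of 1.77 ± 0.76 (SD, n = 3). PE+/- males were at 10.7, 13.02, 49.3 and 4.97 CPM (mean 19.5 ± 20.2, SD, n = 4), and PE-/- males at 2.22, 1.68, 3.00 and 12.9 CPM (4.95 ± 5.33). The order of the means was thus PE+/- female, PE+/- male, PE-/- male and PE-/- female; the last 2 overlapped, as did the male genotypes.

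**Figure D1:**
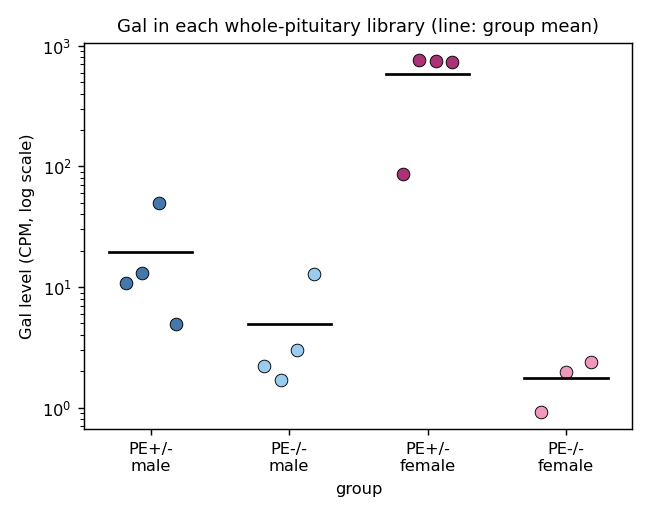
Gal level in CPM (log scale) in each of the 15 whole-pituitary libraries, by genotype and sex, with a line at each group mean. The 4 PE+/- females, from 87.3 to 759 CPM, lie above all other libraries, and the 3 PE-/- females lie between 0.926 and 2.41 CPM.

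In females Gal was lower in PE-/- than in PE+/- glands by a log2 fold change of -8.34 (SE 0.98, 95% interval -10.64 to -6.05, adjusted p = 0.0207, edgeR quasi-likelihood test), a difference of 324-fold, and it was the only one of the 5 members tested there that was called. Across all genes tested in females, 1.05% were called. The call rested on most of the libraries: it was lost without PE+/- female replicate 2 (adjusted p = 0.0574) and without PE-/- female replicate 1, 2 or 3 (adjusted p = 0.0786, 0.0985 and 0.0955), and it was kept without PE+/- female replicate 3 or 4 (adjusted p = 0.0434 and 0.0493) and without replicate 1, where the log2 fold change was -8.70 (adjusted p = 0.00184). The log2 fold change stayed between -8.70 and -8.04 when any 1 library was left out. In males the log2 fold change of Gal was -1.99 (SE 0.87, 95% interval -3.98 to 0.01, adjusted p = 0.815), the groups overlapped, and no member was called by the quasi-likelihood test, against 0.132% of all genes. At an unadjusted p under 0.05, 1 of the 6 members tested in males (Vip) passed, against 6.14% of all genes. Neither DESeq2 nor edgeR's likelihood ratio test called any member in males, against 1.18% and 0.793% of all genes. Without PE-/- male replicate 4, the highest of its group, the male value was -3.08 (adjusted p = 0.457), and without PE+/- male replicate 3, the highest of its group, it was -0.96 (adjusted p = 0.979).

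The female excess of Gal was seen among PE+/- mice, where the groups did not overlap (the share of all genes that separated was not computed). Females were above males by a log2 fold change of 4.89 (SE 0.94, 95% interval 2.74 to 7.04). This difference was not called by the quasi-likelihood test (adjusted p = 0.0720), in a comparison where 0.67% of all genes and 0 of 6 members were called (2, Gal and Vip, at an unadjusted p under 0.05, against 13.5% of all genes), but it was called by the likelihood ratio test (adjusted p = 2.57e-05) and, by the quasi-likelihood test, when the low PE+/- female replicate 1 was left out (adjusted p = 0.0417). Among PE-/- mice the log2 difference of females against males was -1.46 (SE 0.79, 95% interval -3.30 to 0.39, adjusted p = 0.997). There the quasi-likelihood test called 0 of 4 members tested and 0.0494% of all genes. At an unadjusted p under 0.05 it passed 0 members, against 3.37% of all genes. DESeq2 and the likelihood ratio test called 0 members, against 0.225% and 0.181% of all genes. The difference between the 2 genotype effects was tested as an interaction of genotype and sex. For Gal it was -6.35 on the log2 scale (SE 1.34, 95% interval -9.23 to -3.48). Its adjusted p was 0.0854 by the quasi-likelihood test, which called 0.161% of all genes and 0 of 7 members. Of those 7, Nmu was at 0 in both PE-/- groups and gave no usable estimate. At an unadjusted p under 0.05, 1 member (Gal) passed, against 10.1% of all genes. The likelihood ratio test gave Gal an adjusted p of 0.000462 and called 1.05% of all genes. DESeq2 gave no p for Gal in the interaction or in the sex difference of PE+/- mice, because a count was marked as extreme. The interaction passed the quasi-likelihood threshold without PE+/- female replicate 1 (adjusted p = 0.0405) and without PE+/- male replicate 3 (adjusted p = 0.0467). The comparisons of genotype and of sex share libraries, so their values are set side by side and are not independent.

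Among the marker lists reported here, genes called between the female genotypes lay only in the lactotrope and gonadotrope lists. In the lactotrope list Prl was at 21945 to 35081 CPM in PE+/- females, against 4455 to 5598 CPM in PE-/- females, a log2 fold change of -2.58 (SE 0.21, adjusted p = 0.00698, edgeR quasi-likelihood test). Drd2, the other lactotrope marker detected in females, had 27.7 ± 7.0 and 32.3 ± 1.1 CPM (SD, n = 4 and 3, log2 fold change 0.21, adjusted p = 0.700), and Agtr1b was at 0. In males Prl ran from 12274 to 31155 CPM in PE+/- and from 4749 to 41186 CPM in PE-/- glands, and the PE-/- male library with the most Prl, replicate 4, was also the one with the most Gal. The PE+/- males differed in this: the library with the most Gal, replicate 3, had 15713 CPM of Prl. The one with the most Prl, replicate 1, had 10.7 CPM of Gal. PE+/- female replicate 1, the low library for Gal, had 34016 CPM of Prl.

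The summed level of the 4 gonadotrope markers, Nr5a1 among them, was 503 to 2069 CPM in PE+/- and 57.6 to 115 CPM in PE-/- females, with 3 of the 4 called, and 2675 to 3961 and 14.8 to 151 CPM in the males. That of the 4 posterior lobe markers was 3.83 to 17.3 CPM in PE+/- females and 0.394 to 2.97 CPM in PE-/- females, with none called among the 1 tested (Col25a1), and 1.48 to 73.2 and 1.21 to 45.9 CPM in the males. Nearly all of the posterior lobe sum in females was Col25a1 (10.5 ± 6.3 and 1.27 ± 1.05 CPM in PE+/- and PE-/- females). Rax, Nkx2-1 and Lhx2 did not pass the floor in any female library. The summed level of 6 central neuron markers was 67.5 to 118 CPM in PE+/- females, 52.4 to 64.7 CPM in PE-/- females, 51.5 to 72.0 CPM in PE+/- males and 51.8 to 73.8 CPM in PE-/- males. Most of that sum was Slc17a6 (75.1 ± 20.5 and 41.5 ± 5.2 CPM in PE+/- and PE-/- females). Gad2 also had the lower mean in PE-/- females (19.1 ± 7.7 and 14.2 ± 0.9 CPM in PE+/- and PE-/- females). Rbfox3 (1.35 ± 0.82 and 2.26 ± 0.43 CPM) and Slc32a1 (0.623 ± 0.446 and 0.921 ± 0.387 CPM) had the higher mean in PE-/- females, Avp and Oxt were at 0 in all females, and 0 of the 4 tested were called. In 8 other lists of pituitary, glial, vessel and blood cells, 0 of 26 genes tested were called in females by the quasi-likelihood test. Of these lists, only that of stem or folliculostellate cells had summed levels that did not overlap in females. They were 49.2 to 74.1 CPM in PE+/- and 87.0 to 123 CPM in PE-/- females, and overlapped in the males. The part of any of these cells in the Gal difference was not tested.

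Vip (chr10:5639218-5647617, plus strand) encodes vasoactive intestinal peptide, a close relative of the peptide made from Adcyap1. Its counts were 76, 109, 116 and 20 in PE+/- females, whereas PE-/- females had 0, 13 and 14, so that the female genotypes did not overlap. In males they were 19, 21, 31 and 15 in PE+/- and 7, 0, 0 and 10 in PE-/- glands, again without overlap, but no PE-/- male library was above the floor. The share of all genes without overlap was not computed in either sex. Mean levels were 4.51 ± 2.32 CPM in PE+/- females, 0.338 ± 0.311 in PE-/- females, 1.29 ± 0.43 in PE+/- males and 0.231 ± 0.280 in PE-/- males (SD, n = 4, 3, 4 and 4). The order of Vip over the groups was near that of Gal, with the 2 PE-/- groups at the bottom and overlapping.

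In females the log2 fold change of Vip was -3.65 (SE 0.93, 95% interval -5.82 to -1.48), which was not called by the quasi-likelihood test (adjusted p = 0.115) but was by DESeq2 (adjusted p = 0.000788) and the likelihood ratio test (adjusted p = 0.00433). Each of those called 2 members, Gal and Vip, where DESeq2 called 7.91% and the likelihood ratio test 3.93% of all genes. In males the log2 fold change was -2.52 (SE 1.04, 95% interval -4.90 to -0.13, unadjusted p under 0.05), with an adjusted p of 0.778 by the quasi-likelihood test, of 0.463 by DESeq2 and of 0.554 by the likelihood ratio test. Among PE+/- mice, the log2 difference of females against males was 1.81 (SE 0.52, 95% interval 0.63 to 2.99), with an adjusted p of 0.177 by the quasi-likelihood test, 0.0249 by DESeq2 and 0.0439 by the likelihood ratio test, and the groups overlapped through PE+/- female replicate 4. DESeq2 called 5.24% of all genes in that comparison and 1 member, Vip, while the likelihood ratio test called 2.46% and 2 members, Gal and Vip. The interaction of Vip was -1.13 (SE 1.46, 95% interval -4.28 to 2.02, adjusted p = 0.885, edgeR quasi-likelihood test), an interval wide enough to hold both no difference between the sexes and one as large as the genotype effect in males. In PE-/- mice Vip had too few counts to be tested between the sexes.

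**Figure D2:**
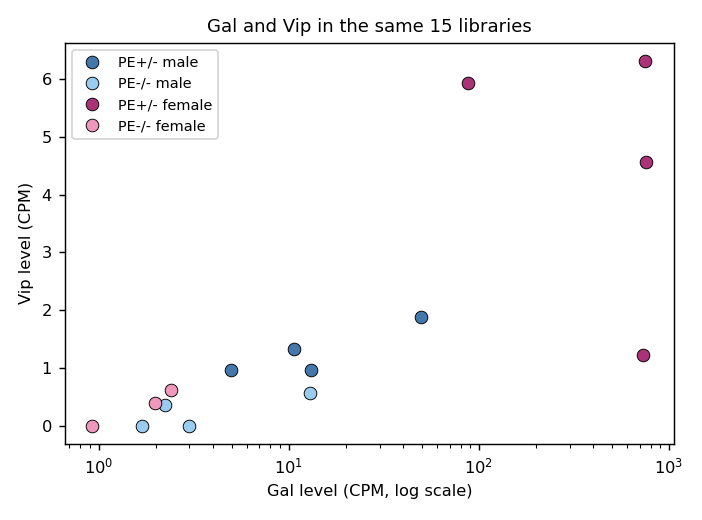
Vip level (CPM) against Gal level (CPM, log scale) in the same 15 libraries, coloured by group. The 7 PE-/- libraries lie at or below 0.613 CPM of Vip and 12.9 CPM of Gal, and the PE+/- females lie to the right, with replicate 1 high for Vip (5.93 CPM) and low for Gal within its group.

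Over the 15 libraries the log2 levels of Gal and Vip had a Pearson r of 0.81 and a Spearman rho of 0.87, a description over points that share their groups. Within PE+/- females the 2 genes did not follow each other: the library lowest for Gal, replicate 1, had the second of the 4 Vip levels from the top (5.93 CPM), and the one lowest for Vip, replicate 4 at 1.22 CPM, had 730 CPM of Gal. The genes most like Gal over the 15 libraries were Gm9844 (r = 0.97), Sec11c, a subunit of the signal peptidase (r = 0.97, rho = 0.96), and Gm13446 (r = 0.97). With each group's mean removed, their r with Gal was 0.78, 0.87 and 0.79. The genes were picked by r over the same libraries, a choice that favours a high r within groups, here and for Vip below. Sec11c ran over a far narrower range than Gal, from 57.2 ± 3.3 CPM in PE-/- females to 125 ± 23 in PE+/- females (SD, n = 3 and 4), with PE+/- males at 78.9 ± 8.7 and PE-/- males at 71.0 ± 10.5 CPM. Those most like Vip were Greb1, a gene known for its induction by estrogen in other tissues (r = 0.89), Akr1c14, a steroid-metabolising enzyme (r = 0.88), and Adamts2, a procollagen peptidase (r = 0.87), and their r within groups was 0.64, 0.52 and 0.57. Greb1 was at 31.8 ± 22.8 CPM in PE+/- females and 0.679 ± 0.153 in PE-/- females, and Akr1c14 at 464 ± 167 and 0.482 ± 0.114 CPM.

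Cck (chr9:121489824-121495694, minus strand) encodes cholecystokinin and was the 1 tested member with more counts in PE-/- glands of each sex. Its counts were 0, 55, 27 and 16 in PE+/- females, against 43, 205 and 73 in PE-/- females, or 1.19 ± 0.96 and 4.06 ± 1.99 CPM (SD, n = 4 and 3). The female groups did not overlap in CPM, a separation whose share over all genes was not computed. In males they were 58, 13, 39 and 41 in PE+/- and 80, 201, 56 and 43 in PE-/- glands, or 2.43 ± 1.43 and 4.2 ± 2.4 CPM (SD, n = 4 each), with overlap. The log2 fold change was 1.74 in females (SE 0.88, 95% interval -0.31 to 3.79, adjusted p = 0.391) and 0.80 in males (SE 0.58, 95% interval -0.52 to 2.12, adjusted p = 0.970), neither being called by the quasi-likelihood test. A single library held much of each PE-/- level, since without PE-/- female replicate 2 the female value was 1.26 and without PE-/- male replicate 2 the male value was 0.33. PE+/- females and males differed by -0.997 on the log2 scale (SE 0.91, adjusted p = 0.707).

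Tac1 (chr6:7554879-7565834, plus strand), the precursor of substance P and neurokinin A, was near the floor. PE+/- males had 17, 33, 11 and 33 counts and PE-/- males 6, 0, 0 and 17, or 1.38 ± 0.61 and 0.317 ± 0.456 CPM (SD, n = 4 each). PE+/- females had 12, 0, 0 and 0 counts and PE-/- females 12, 14 and 8. The log2 fold change in males was -2.16 (SE 1.14, 95% interval -4.76 to 0.44, adjusted p = 0.902, edgeR quasi-likelihood test), with overlapping groups. Female genotypes were not tested because of the low counts, and their levels spanned 0 to 0.937 CPM in PE+/- and 0.350 to 0.741 CPM in PE-/- glands. Females against males in PE+/- mice gave a log2 difference of -2.68 (SE 1.33, adjusted p = 0.442), which was not called either. It rests on PE+/- female replicate 1, the 1 library of its group with counts, since without it that group is at 0 and the fitted value, then no measure of size, was -7.65 (adjusted p = 0.0647).

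Nmu (chr5:76333495-76363788, minus strand) encodes neuromedin U, and its few counts came from PE+/- glands. PE+/- males had 20, 14, 7 and 0 counts and PE+/- females 0, 0, 10 and 6, while all 7 PE-/- libraries were at 0. A count of 0 in a library allows up to 0.371 to 0.937 CPM, and the PE+/- libraries ran from 0 to 1.41 CPM. The 2-group comparisons did not test Nmu, and the test of any difference among the 4 groups gave an adjusted p of 0.226, against 0.000777 for Gal and 0.0609 for Vip. The genes most like it over the 15 libraries were Dcun1d3 (r = 0.87), Edc3 (r = 0.82) and Gm8034 (r = 0.81).

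Penk (chr4:4133531-4138819, minus strand), the precursor of the enkephalins, had counts in every library. They were 332, 924, 417 and 643 in PE+/- females, 452, 399 and 433 in the PE-/- females, while PE+/- males had 212, 1018, 244 and 410 and PE-/- males 488, 643, 258 and 466. The group means were 31.6 ± 8.6, 19.7 ± 7.8, 25.9 ± 15.2 and 22.0 ± 6.6 CPM (SD, n = 4, 3, 4 and 4), and all groups overlapped. The genotype log2 fold change was -0.69 in females (SE 0.33, 95% interval -1.46 to 0.07, adjusted p = 0.362) and -0.24 in males (SE 0.41, 95% interval -1.18 to 0.71, adjusted p = 0.988). The sexes differed by 0.30 in PE+/- and by -0.15 in PE-/- mice on the log2 scale (adjusted p = 0.820 and 0.997, edgeR quasi-likelihood test).

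Nmb, the precursor of neuromedin B, was low and present in all 15 libraries. Its counts were 26, 46, 58 and 50 in PE+/- females, 19, 102 and 31 in PE-/- females, while PE+/- males had 53, 89, 46 and 62 and PE-/- males 39, 77, 108 and 81. Levels were 2.54 ± 0.65, 1.89 ± 1.09, 3.67 ± 0.60 and 3.64 ± 1.44 CPM in that order (SD, n = 4, 3, 4 and 4). The genotype log2 fold change was -0.41 in females (SE 0.43, 95% interval -1.42 to 0.60, adjusted p = 0.727) and -0.01 in males (SE 0.32, 95% interval -0.74 to 0.72, adjusted p = 0.999). Nmb (chr7:80902227-80905076, minus strand, build mm10) overlaps Sec11a on the same strand, which held 55225 counts over the 15 libraries, so its values are uncertain.

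**Figure D3:**
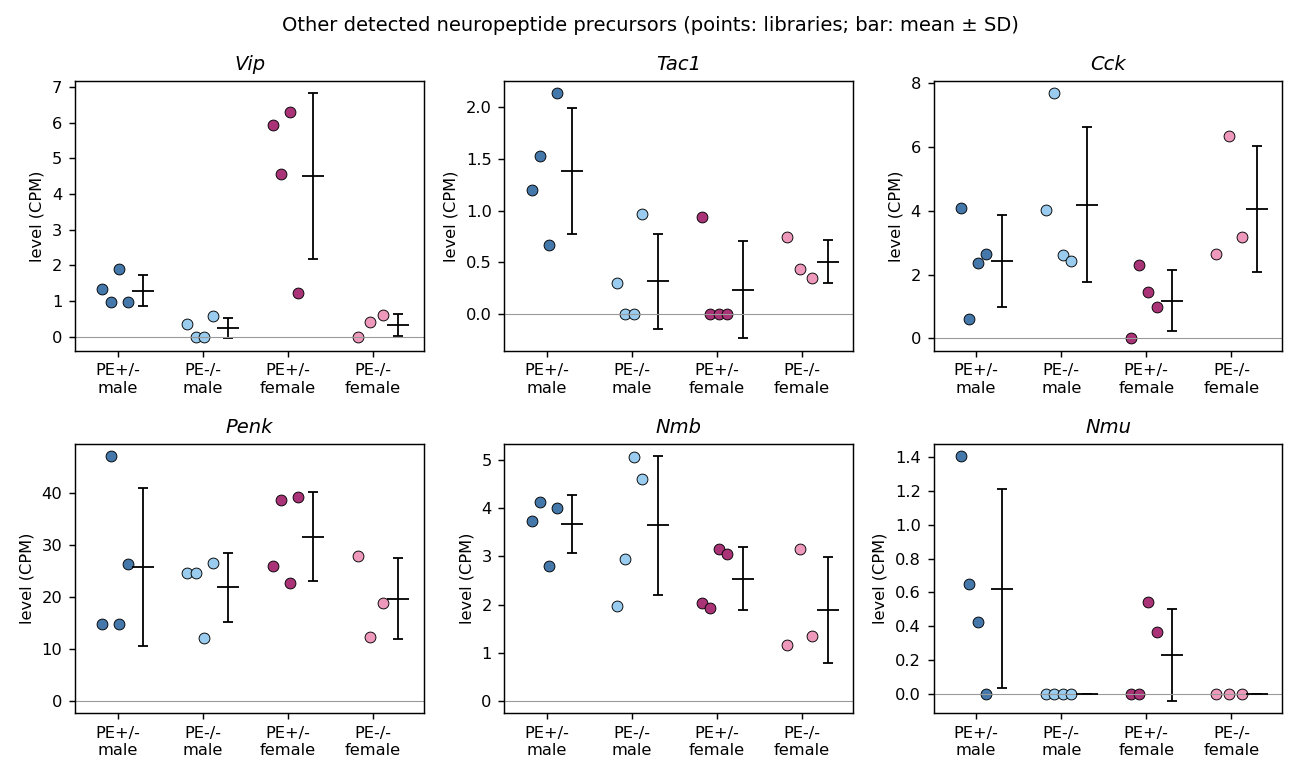
Level in CPM of the 6 other detected precursors in each library, with each group's mean and SD beside its points. Vip and Nmu sit at or near 0 in PE-/- glands, while Penk and Nmb overlap in all groups.

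Nts (neurotensin), Npy (neuropeptide Y) and Adcyap1 (the precursor of PACAP) were listed at 0 in all 15 libraries. Their rows carried only the Ensembl gene name, a kind of row that was at 0 in all libraries for 19883 of 26590 genes, whereas the rows of the other 7 members carried an assembled locus name, of which 4416 of 28933 were at 0. Of 72 ribosomal protein genes, 0 were at 0 in all libraries. The table does not show whether reads of these 3 genes were present but assigned elsewhere.

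Per kilobase of annotated exon, Gal was the highest of the precursors in PE+/- females, at 737 ± 417 CPM per kb, followed by Penk at 19.4 ± 5.2 (SD, n = 4), and the 2 ranges did not overlap. In PE-/- females the order was Penk (12.1 ± 4.8 CPM per kb), Cck (3.11 ± 1.52), Nmb (2.39 ± 1.38) and Gal (2.25 ± 0.97), with Cck, Nmb and Gal within the spread of each other (SD, n = 3). In PE+/- males Gal (24.7 ± 25.6) and Penk (15.8 ± 9.3) lay within their spread, and in PE-/- males Penk (13.4 ± 4.1) came before Gal (6.29 ± 6.76, SD, n = 4). The group means of Vip, Tac1 and Nmu were at most 1.33 CPM per kb. The 6 members tested in males had a median log2 fold change of -1.11, with 5 below 0 and 1 above, and the 5 tested in females a median of -0.69, with 4 below 0 and 1 above. Over all genes tested the medians were 0.00 in each sex. Vip and Tac1 in males, and Vip in females, passed the low-count filter mainly through PE+/- libraries. Their signs were thus partly set by that filter, and the medians and sign counts are a description, not a test of the set. Between the sexes, the median over the 6 members tested in PE+/- mice was -0.12 (all genes -0.01), and over the 4 tested in PE-/- mice -0.54 (all genes 0.00).

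**Figure D4:**
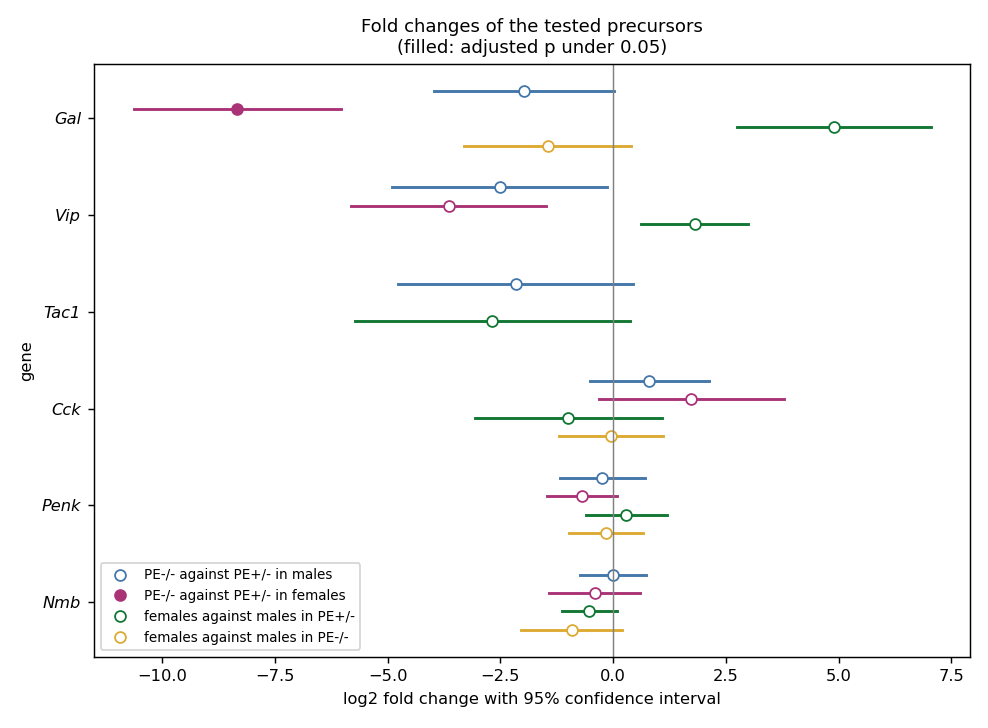
Log2 fold change with its 95% confidence interval for the members tested in the 4 comparisons of genotype and sex, filled where the adjusted p is under 0.05. Gal in females, at -8.34, is the one filled point, and the intervals of Penk and Nmb include 0 in every comparison.

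The receptors of these peptides formed a list of 25 genes, of which 3 were at 0 in all libraries. Of the 11 tested for genotype in each sex, the 10 and 11 tested between the sexes in PE+/- and PE-/- mice and the 14 tested for the interaction, none was called by the quasi-likelihood test. At an unadjusted p under 0.05, 2 passed in males, 1 in females, 2 and 1 between the sexes in PE+/- and PE-/- mice, and 3 for the interaction, where the shares of all genes were 6.14%, 16.1%, 13.5%, 3.37% and 10.1%. For the galanin receptors, Galr1 was at 2.26 ± 1.87 CPM in PE+/- females and 1.08 ± 0.44 in PE-/- females (log2 fold change -1.07, SE 0.81, adjusted p = 0.594), and at 0.81 ± 0.76 and 1.16 ± 0.46 CPM in the males. Galr2 was above 0 in PE+/- males only, at up to 1.34 CPM, and Galr3 stayed at or below 2.61 CPM in all groups. These levels are close to the floor.

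Cckar, the type A cholecystokinin receptor, had 32, 229, 1408 and 154 counts in PE+/- females and 0 in the 3 PE-/- females. PE+/- males had 0, 0, 8 and 0 counts and PE-/- males 0, 0, 0 and 5, so that only PE+/- females were above the floor. Its mean was 24.5 ± 34.9 CPM in PE+/- females (SD, n = 4), with most of it from replicate 3 at 76.6 CPM. Set against a floor of 3 fragments in each PE-/- female library, this was at least 44.9-fold higher, and at least 13.1-fold higher without replicate 3. The quasi-likelihood test did not call it for genotype in females (adjusted p = 0.108) or for sex in PE+/- mice (adjusted p = 0.0839). DESeq2 and the likelihood ratio test called it in both. For genotype in females each called 1 of 11 receptors, against 7.91% and 3.93% of all genes. For sex in PE+/- mice each called 2 of 10, Cckar and Tacr1, against 5.24% and 2.46% of all genes. Cckar passed the low-count filter through the PE+/- females, so its signs were partly set by that filter. Cckbr, the type B receptor, was at 16.7 ± 18.0 and 16.4 ± 2.5 CPM in PE+/- and PE-/- females and at 4.86 ± 2.16 and 10.6 ± 5.1 CPM in the males (male log2 fold change 1.12, SE 0.44, adjusted p = 0.727).

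Of the other receptors, Adcyap1r1, the PACAP receptor, was at 22.1 to 36.1 CPM in PE+/- males and 7.58 to 21.3 CPM in PE-/- males. These ranges did not overlap, but the share of all genes without overlap was not computed. The log2 fold change of Adcyap1r1 in males was -1.12 (SE 0.35, adjusted p = 0.554, edgeR quasi-likelihood test). In females its log2 fold change was -0.29 (SE 0.56, adjusted p = 0.870), and its ligand gene was listed at 0. Tacr1, the substance P receptor, had 0, 0, 0 and 5 counts in PE+/- males, against 10, 55, 54 and 37 in the PE+/- females. The log2 difference was 4.64 (SE 1.10, adjusted p = 0.121, edgeR quasi-likelihood test). Tacr1 passed the low-count filter there through the females, so its sign was partly set by that filter. It was called in that comparison by DESeq2 and the likelihood ratio test, against 5.24% and 2.46% of all genes. Ntsr2, a neurotensin receptor, was called by the same 2 tests for the interaction, where DESeq2 called 1 of 14 receptors and 2.03% of all genes. The likelihood ratio test called 2 of 14, Ntsr2 and Cckar, and 1.05% of all genes. Counts of Ntsr2 were 0 in all PE+/- females and 8, 13 and 23 in PE-/- females. In males they were 67, 0, 8 and 16 in PE+/- and 36, 17, 14 and 16 in PE-/- glands. Npy1r was present in every group, between 2.22 and 7.35 CPM, and Sort1, a sorting receptor that also binds neurotensin, between 21.7 and 47.3 CPM.

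A list of 51 other peptide precursors served for comparison, and 19 of them were at 0 in all libraries. By the quasi-likelihood test none was called among the 12 tested in males, 13 in females, 12 and 13 between the sexes in PE+/- and PE-/- mice and 17 for the interaction. At an unadjusted p under 0.05 the numbers in that order were 0, 4, 4, 0 and 3. The shares of all genes were 6.14%, 16.1%, 13.5%, 3.37% and 10.1%. Prok2, the precursor of prokineticin 2, had 33, 50, 39 and 28 counts in PE+/- females, against 5, 9 and 0 in PE-/- females. Its log2 fold change was -3.42 (SE 0.84, adjusted p = 0.108, edgeR quasi-likelihood test). It passed the low-count filter through the PE+/- libraries, so its sign was partly set by that filter. DESeq2 and the likelihood ratio test called it, as 1 of 13 tested on this list, against 7.91% and 3.93% of all genes. In males its counts were 0, 23, 10 and 11 in PE+/- and 0, 0, 10 and 7 in PE-/- glands, all but 1 of them under the floor. Adm, the adrenomedullin precursor, was called by DESeq2 and the likelihood ratio test between the sexes of PE+/- mice. It was at 1.46 ± 0.72 CPM in females and 6.05 ± 4.18 in males (log2 difference -2.05, SE 0.61, adjusted p = 0.196, edgeR quasi-likelihood test). Each of the 2 alternative tests called 1 of 12 tested on this list there, against 5.24% and 2.46% of all genes. The median log2 fold change of the tested precursors on this list was 0.05 in males and 0.28 in females.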

How the data were processed

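The deposited table holds 1 estimated count per gene and library. By the published methods, the authors trimmed the reads with cutadapt, aligned them to mm10 with STAR and counted with featureCounts. The row names come from assembled loci and the counts step by about 4 per fragment (a count of 5 was 1.41 times as frequent as its neighbours), a step not given in the sources used here. The values are whole numbers and were used as deposited, and 0 columns were left unmatched. By those methods counting used default parameters, which ignore strand. Since the step that made these counts is not given, whether antisense overlaps were separated is not known.

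Genes that passed filterByExpr at a minimum count of 10 and a minimum total of 15 were scaled by TMM and tested with edgeR 4.0.16 (quasi-likelihood, limma 3.58.1, R 4.3.3), the main test, calling genes at a Benjamini-Hochberg adjusted p under 0.05. Each 2-group comparison used its own libraries, and the interaction all 15. DESeq2 1.42.0 and edgeR's likelihood ratio test were alternatives, and the tests were checked on simulated data. The members, gene lists and motifs were chosen with earlier results of these data known. The genes named were the members, Nr5a1, list genes called by the main test (none), receptors of a called member and the 3 genes most like each of Gal, Vip and Nmu (Pearson r of log2 CPM, prior count 2). Cckar, Tacr1, Ntsr2, Prok2 and Adm, which an alternative called, and Cckbr, Adcyap1r1, Npy1r, Sort1 and the single markers were named after their values were seen. Positions come from GENCODE M21. The intervals of fold changes include the spread between libraries, and the floors cover counting error only. Library totals ran from 12982794 to 30238443, so that a count of 0 allows up to 0.371 to 0.937 CPM. Of 13 marker lists, 1 is not reported here.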

Additional observations from a re-analysis of the deposited data

Results flagged for a closer look

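In groups of 4 libraries, a library was marked where its gap to the nearest other library, as a share of the group's whole range, was above Dixon's critical value at 95%. Of 20 member and group pairs looked at, 4 were marked, where chance marks about 1 in 20. Gal was low in PE+/- female replicate 1, with a gap of 0.958 of the range (87.3 CPM against 730 to 759). Gal was high in PE-/- male replicate 4, with a gap of 0.883 (12.9 CPM against 1.68 to 3.00). Tac1 was above 0 in PE+/- female replicate 1 alone, a gap of 1.0, which rests on 12 counts and lies at the floor. Penk was low in PE-/- male replicate 3, with a gap of 0.869 (12.1 CPM).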

How the results depend on the processing

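With each alternative, 426 log2 values of the members were recomputed: 402 kept their direction and their side of the threshold, 10 passed it newly, 5 lost it and 9 changed sign. All 9 sign changes came from leaving out 1 library and concern values near 0. For genotype in males, Penk ran from -0.43 to 0.22 and Nmb ran from -0.21 to 0.19. For sex in PE-/- mice, Cck ran from -0.53 to 0.43 and Penk from -0.49 to 0.093. In females the called members numbered 1 (Gal), against 2 (Gal and Vip) by DESeq2 and by the likelihood ratio test, and 0 to 1 when a library was left out. For sex in PE+/- mice they numbered 0, against 1 by DESeq2 (Vip), 2 by the likelihood ratio test (Gal and Vip), 1 with one fit on all 15 libraries (Gal), and 0 to 1 when a library was left out. For the interaction they numbered 0, against 1 by the likelihood ratio test (Gal) and 0 to 1 when a library was left out. In males and between the sexes of PE-/- mice they stayed at 0 under every alternative run.

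The counts over all genes moved more. In males 23 genes were called, against 206 by DESeq2, 138 by the likelihood ratio test, 37 with one fit on all 15 libraries and 11 to 35 when a library was left out. In females 189 were called, against 1431, 710 and 714 under the same settings, 123 with no low-count filter and 29 to 244 when a library was left out. For sex in PE+/- mice 115 were called, against 900, 422 and 421, 66 with no low-count filter and 34 to 113 when a library was left out. For sex in PE-/- mice 9 were called, against 41 by DESeq2, 33 by the likelihood ratio test and 7 to 27 when a library was left out, and for the interaction 31, against 392, 202 and 7 to 71. The cause of these differences was not tested.

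Whether replicate numbers pair the samples was not settled. The correlation of deviations between same-numbered libraries ran from -0.081 to 0.113. Between the female genotypes, replicates 1 and 2 correlated best with their own number (r = 0.113 and 0.088) and replicate 3 did not (-0.015). The same held between the sexes of PE-/- mice (0.060, 0.076 and -0.039). Between the male genotypes and between the sexes of PE+/- mice, no library correlated best with its own number. With the replicate number as a block, Gal in females had a log2 fold change of -7.87 (adjusted p = 0.204, edgeR quasi-likelihood test), so that 0 members were called, and the genes called numbered 0 in males, 1 in females, 0 and 0 for sex in PE+/- and PE-/- mice and 11 for the interaction. Depth limits Tac1, Nmu and Vip in PE-/- glands, which rest on a few fragments.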
